A study of Mus musculus with 16 samples.

Results

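The comparison described here sets mouse pre-B cells stimulated for 1.5 h against control cells. It was chosen by its labels, as every sample of the control and of the 1.5 h stimulation, which are 8 of the 16 samples of the series, and it was read over all 38918 annotated features. Both groups were pre-B cells from Blnk-/- knockout mice that had been infected with a retroviral BLNK-ERt2 construct, so both lacked the endogenous adaptor BLNK and both carried the tamoxifen-inducible fusion. The 1.5 h group had been stimulated for 1.5 h, and the control group is labelled as control only. The sources used here do not state what the control cells received in place of the inducer, how many animals or cultures were used, or whether the infected cells were a clone or a pool. The other groups of the series, stimulated for 0.5 h and 5 h, are used below only for levels set beside the comparison. The stated purpose of the series was to find genes that respond to signalling by the pre-B cell receptor.

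The pre-B cell receptor is the first antigen receptor that a developing B cell makes. It pairs an immunoglobulin mu heavy chain with a surrogate light chain made of VpreB and lambda5, and it signals through CD79A and CD79B, the kinase SYK and the adaptor BLNK. In pre-B cells this signalling is known to slow IL-7-driven division, to change the activity of FoxO transcription factors through PI3 kinase, and to raise IRF4, which prepares the immunoglobulin light chain loci for rearrangement. Immediate early genes are the first to be transcribed after such a signal, since their induction needs no new protein.

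Each group was 1 library sequenced in 4 lanes, and the lanes were summed. The control library held 34533362 total exon reads and the 1.5 h library 32631061, of which 84.0% and 84.5% were placed uniquely. With 1 library a condition there is no replicate spread and no test between conditions, so every interval below is a 95% exact Clopper-Pearson interval of a ratio that covers counting error only. In unique exon reads the lanes of a library differed by about counting error, with chi-square over its degrees of freedom at 1.02 and 1.0. In total exon reads they differed by more, at 1.34 and 1.27. Intervals on total reads thus leave out part of the spread between lanes. CPM stands for exon reads of a gene per 1000000 total exon reads. The labelled cell type was borne out by its markers, of which 13 of 13 found reached 1 CPM in either library. Their levels summed to 12934.5 CPM in control and 11188.1 CPM at 1.5 h. Of these pre-B markers 11 of 13 were lower at 1.5 h than in control, with a median log2 ratio of -0.26. Most markers of other cells were low. Of these, 3 of 14 genes of T and NK cells were measured at 1 CPM or more in either library, 4 of 13 of myeloid cells, 2 of 12 of erythroid cells and megakaryocytes, and 2 of 13 of stromal cells. Their summed levels in control and at 1.5 h were 58.3 and 56.9 CPM, 77.0 and 67.6 CPM, 13.4 and 13.3 CPM, and 146 and 132 CPM. Plasma cell markers were not low, with 6 of 8 found measured and sums of 687 and 1015 CPM. That list includes Irf4, which went from 142 to 445 CPM, while its defining gene Prdm1 stood at 0.123 CPM at 1.5 h. Cd3e, Cd4, Ly6g, Alas2, Dcn and Lum, markers of T cells, neutrophils, red cells and fibroblasts, had 0 reads in both libraries. A count of 0 allows up to 0.0869 CPM in control and 0.0919 CPM at 1.5 h. They were picked from the genes with 0 reads in both, which were 5 of T and NK cells, 1 myeloid, 2 erythroid or megakaryocyte and 4 stromal. Other members of these lists were measured, so these zeros do not show that other cells were absent. In RNA from whole cultures, fewer cells of a type and less RNA per cell cannot be told apart.

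Between control and 1.5 h most genes moved little, and a small set moved by at least 2-fold. A gene was called when its ratio was at least 2-fold after 1 CPM was added to both libraries and its level was at least 5 CPM in the higher one. Of 9512 genes at that level, 61 were called higher (0.641%) and 20 lower (0.210%). In uniquely placed reads alone, 52 of the 61 and 14 of the 20 were also called. Genes that reached 1 CPM in one library or the other are called measured below. Over these 10996 genes the median log2 ratio was -0.01, and 5% of genes lay below -0.44 and 5% above 0.48. Of these genes 47.4% were above 0 and 52.6% below, the shares against which counts of list members are to be read. Ratios of at least 1.5-fold were held by 321 higher and 189 lower genes, and ratios of at least 3-fold by 9 and 1. The calls were thus few in number and small in size, and the higher ones were more common.

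**Figure D1:**
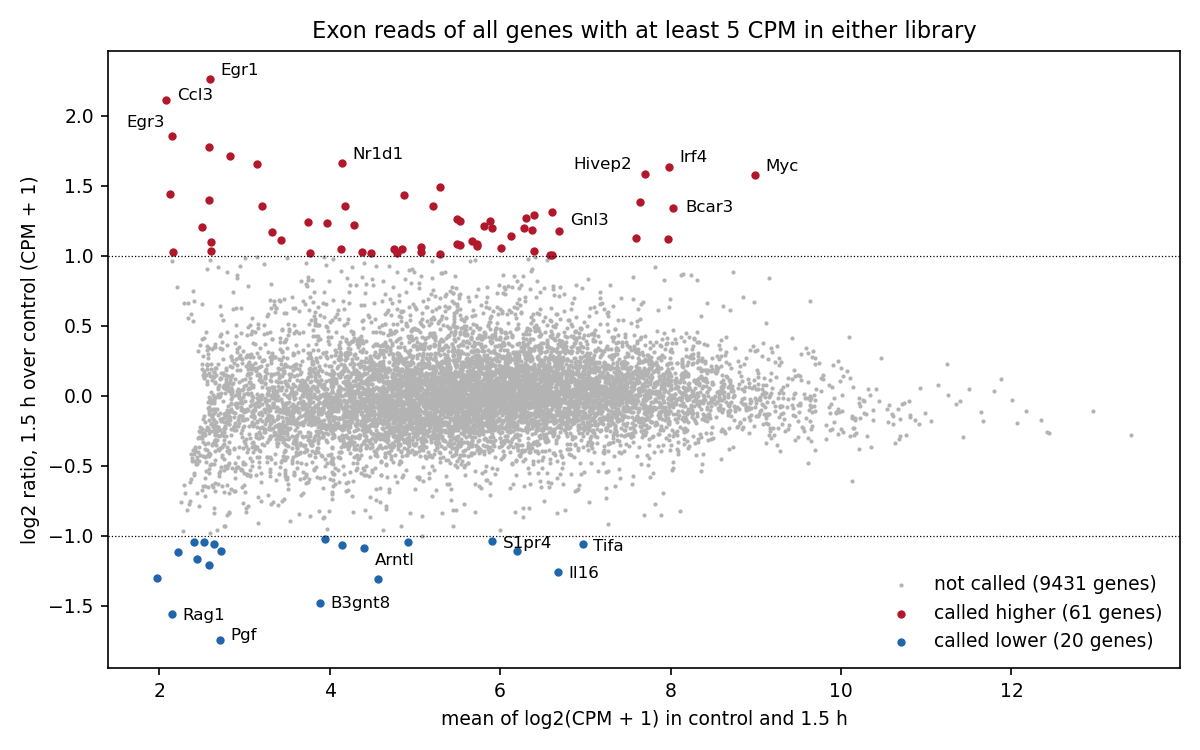
Log2 ratio of exon reads at 1.5 h over control, after adding 1 CPM, against the mean log2 level of the 2 libraries, for the 9512 genes that reached 5 CPM in one library or both. Each point is a gene, red points are the 61 genes called higher, blue points are the 20 called lower, and dotted lines mark 2-fold. Irf4 and Myc stand apart among abundant genes, while Egr1 and Ccl3 have the largest ratios at low levels.

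Both libraries held a second measure of the same genes, the unique reads that fell in a gene but outside its exons. These reads can come from introns of unspliced RNA and from other transcripts within the gene. They are given per 1000000 unique gene reads, abbreviated RPM. They made up 13.0% of unique gene reads in control and 13.8% at 1.5 h. Of the 61 genes called higher in exon reads, 37 had at least 2 such reads per 1000000 in either library, 37 of those were higher in them too, and 27 were at least 2-fold higher after adding 0.5 to both values. For the 20 lower genes the counts were 13, 13 and 5. By the same rule over all 8491 genes at that level, 200 were called higher (2.36%) and 53 lower (0.624%). The median log2 ratio over all of them was 0.07, and 58.0% were above 0. The minimum could be met in either library, so some called genes, such as Per1 at 0.929 and 2.50 RPM, passed it only at 1.5 h. Counts of agreement between the 2 measures are thus in part fixed by the minimum, also for the list members below. Reads across splice junctions, which come from spliced RNA, were on the same side for 48 of the 48 higher genes and 15 of the 15 lower genes that had at least 20 of them in both libraries together. Junction reads are a part of the exon reads and not a separate measure.

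Among transcription factors, Irf4 (interferon regulatory factor 4, chromosome 13, 30749226 to 30766927, mm10) had the largest ratio of the genes at 100 CPM or more at 1.5 h. Its 4 control lanes stood at 145, 134, 147 and 144 CPM, and its 4 lanes at 1.5 h at 454, 438, 441 and 448 CPM. The lanes of the 2 libraries did not overlap. Irf4 was 3.12-fold higher at 1.5 h (3.03 to 3.23), and its reads outside exons went from 10.9 to 50.9 RPM, 4.66-fold higher (4.16 to 5.23). In exon reads its level was 239 CPM at 0.5 h and 347 CPM at 5 h, so the 1.5 h library was the highest of the 4. In reads outside exons the 0.5 h library, at 48.8 RPM, was already close to the 1.5 h one.

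Hivep2, a large zinc finger protein that binds NF-kB-like sequences, was called beside it. Hivep2 (chromosome 10, 13966379 to 14151376) had 120, 126, 112 and 117 CPM in the control lanes and 356, 364, 350 and 363 CPM in the lanes at 1.5 h. It was 3.02-fold higher in exon reads (2.91 to 3.13) and 3.98-fold in reads outside exons (3.55 to 4.46). At 0.5 h Hivep2 had moved less than Irf4 from its control levels of 119 CPM and 11.6 RPM outside exons, to 146 CPM and 18.7 RPM.

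Myc, the growth factor-induced transcription factor that drives ribosome production, was another abundant regulator. Its lanes held 296, 292, 289 and 296 CPM in control and 880, 880, 874 and 867 CPM at 1.5 h, 2.99-fold higher (2.92 to 3.06). The level at 1.5 h, 875 CPM, was below the 923 CPM of the 0.5 h library. Its reads outside exons stood at 16.6 RPM in control, 70.7 at 0.5 h, 42.9 at 1.5 h and 19.2 at 5 h, so they were already past their highest library while exon reads were nearly level. Of the 11 measured genes of the network of MYC partners, Myc alone was called, where 0.641% of all genes were called higher. Max, its obligate partner, was at 150 and 195 CPM, and the antagonists Mxd3, Mxd4 and Mxi1 were below control, at 1.64-fold (1.46 to 1.84), 1.54-fold (1.46 to 1.62) and 1.36-fold lower (1.28 to 1.45), none of them called.

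Other B lineage factors were near control. Irf4 was the 1 gene called of 28 measured, where 0.641% of all genes were called higher. In the list 17 members were above 0, against 47.4% of all genes, and the median log2 ratio was 0.07. Ikzf3, which encodes the Ikaros relative Aiolos, went from 115 to 183 CPM, 1.59-fold higher (1.53 to 1.66), and its reads outside exons were 2.32-fold higher (2.19 to 2.45) at 121 RPM. Pax5, which keeps B cell identity, was 1.22-fold higher (1.19 to 1.25). Erg, an Ets-family factor, went the other way from 319 to 176 CPM, 1.81-fold lower (1.76 to 1.87), with reads outside exons 1.83-fold lower (1.75 to 1.92). Bcl6 stood at 16.3 and 15.5 CPM.

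Immediate early transcription factors were mostly above control at 1.5 h, and 14 of 25 stood below their level of 0.5 h. Of the 25 measured members 22 were above 0 and 7, Hivep2 included, were called higher. The list's median log2 ratio was 0.60, against the median of -0.01 and the 0.641% called over all genes. Egr1, the zinc finger factor that heads the list, had 1.61, 1.99, 1.28 and 2.20 CPM in the control lanes and 13.3, 10.7, 11.8 and 13.3 CPM in the 1.5 h lanes. This is 6.96-fold higher (5.30 to 9.26), at 12.3 CPM against 153 CPM at 0.5 h. Nr4a1, an orphan nuclear receptor, followed the same order, with 4.0 CPM in control, 29.6 CPM at 0.5 h, 14.7 CPM at 1.5 h and 1.56 CPM at 5 h.

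Not every member of this list had its highest level at 0.5 h. Egr3 was at 1.33 CPM in control, 6.67 CPM at 0.5 h and 7.45 CPM at 1.5 h, 5.59-fold above control (4.07 to 7.84). Nr4a3, a relative of Nr4a1, was at 2.72, 4.55 and 7.57 CPM in the same libraries, 2.78-fold higher at 1.5 h (2.18 to 3.57). Junb, a subunit of AP-1, was at 35.5, 94.4 and 75.6 CPM. Srf, the serum response factor, was called at 2.11-fold (1.89 to 2.37) on total reads and not on unique ones, which were 27.2% of the total. Fos and Klf10, other members, stood at 1.04 and 17.4 CPM at 1.5 h, within 1.5-fold of control. Below control were Id2, an inhibitor of E proteins, at 9.18 and 5.85 CPM, Id3 and Klf6.

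Secreted signals and feedback genes of the same early response were mixed. Ccl3, a chemokine, went from 1.04 to 7.81 CPM, 7.50-fold higher (5.27 to 10.9), and was called. Ccl4, its neighbour in the family, rested on few reads in control, with 0.0579 CPM, and reached 4.23 CPM at 1.5 h, under the level needed for a call. Of 13 measured phosphatase and Sprouty genes that damp MAP kinases 10 were above 0 and 0 were called, where 0.641% of all genes were called higher. In this list 4 were at least 1.5-fold higher, and the largest log2 ratio, 1.38, was of a member under the 5 CPM needed for a call. Dusp2 was at 35.2, 122 and 55.3 CPM in control, at 0.5 h and at 1.5 h. Dusp5 was lower, at 135 and 75.2 CPM, 1.79-fold (1.71 to 1.88). Outside the list, the phosphatase genes Dusp3 and Dusp16 were called, at 2.63-fold (2.41 to 2.86) and 2.16-fold higher (2.0 to 2.33).

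Among NF-kB genes 11 of 13 measured were above 0 with 0 called, beside 0.641% of all genes called higher. The non-canonical subunits Nfkb2 and Relb had ratios of 1.82-fold (1.72 to 1.93) and 1.66-fold higher (1.46 to 1.88), among the 3 largest of the list. Nfkbid, a nuclear inhibitor-like protein, was at 19.5 CPM in control, 64.3 CPM at 0.5 h and 32.2 CPM at 1.5 h. Nfkb1 and Nfkbia, the canonical subunit and the main inhibitor, were within 0.1 of 0 on the log2 scale.

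**Figure D2:**
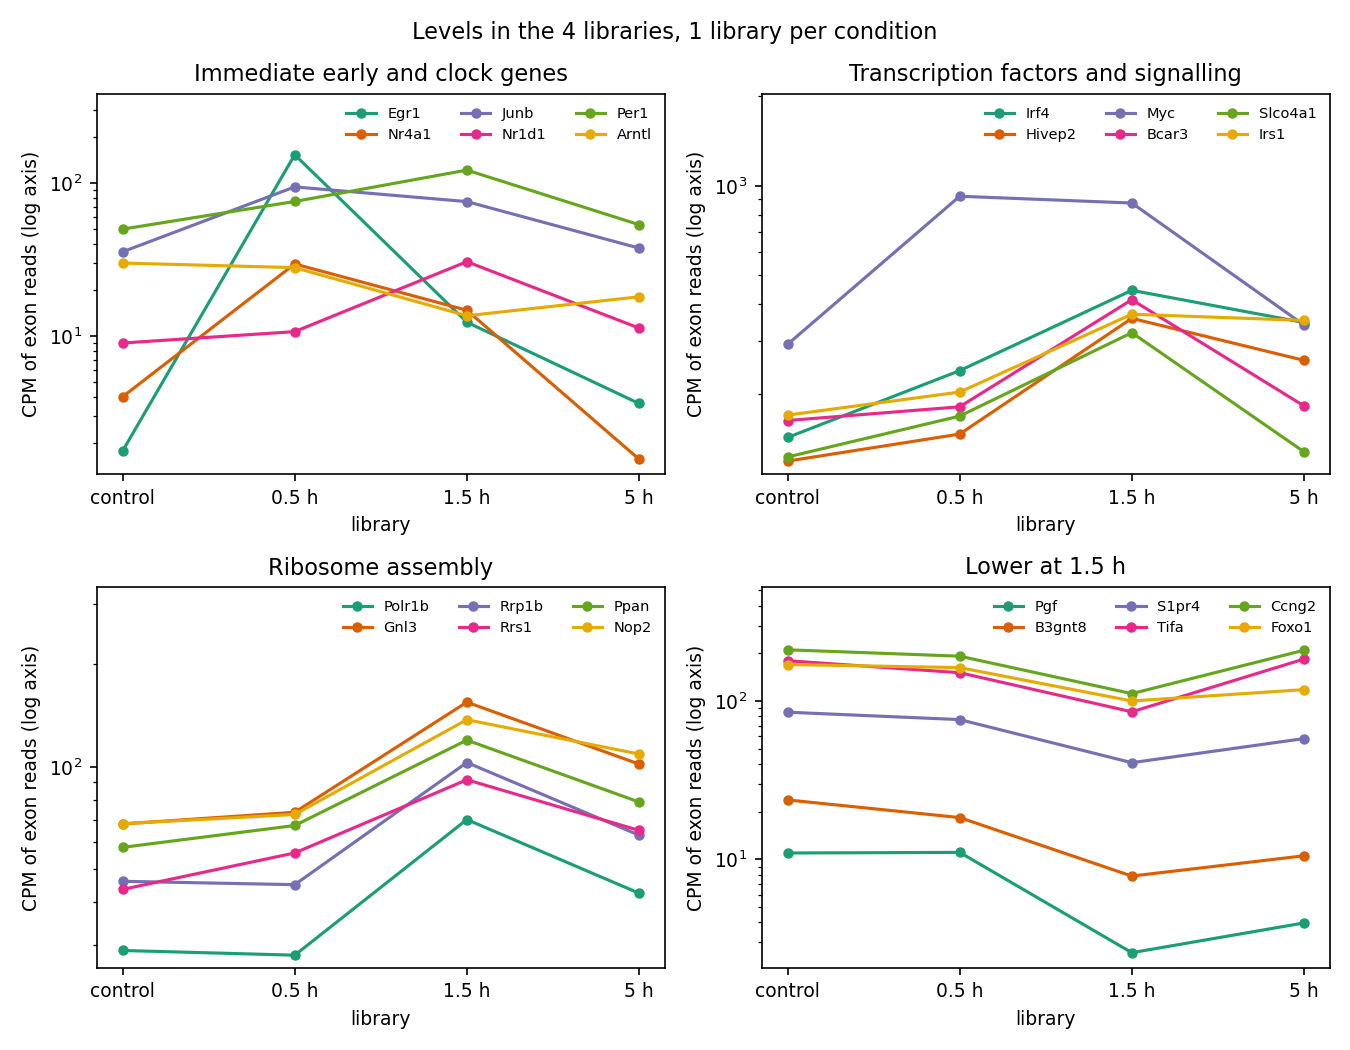
CPM of exon reads on log axes in the 4 libraries of the series, control, 0.5 h, 1.5 h and 5 h, with 1 library per condition and therefore no error bars. The panels show immediate early and clock genes, abundant regulators, ribosome assembly genes, and genes lower at 1.5 h. Egr1 was highest at 0.5 h, while the 6 ribosome assembly genes, picked from those called higher at 1.5 h, were highest at 1.5 h.

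The level at 1.5 h was the highest of the 4 libraries for 48 of the 61 higher genes, with 0.5 h the highest for 9 and 5 h for 4. For the lower genes, 1.5 h was the lowest library for 19 of 20. At 5 h 38 of the 61 and 11 of the 20 were within 1.5-fold of control again, on the scale with 1 CPM added. These other comparisons share the control library with the present one, so their values are set side by side here and are not independent of it. Genes were picked by their values at 1.5 h, which in part fixes these counts, and no such counts over all genes are given. Slco4a1, an organic anion transporter, is an example, with 122 CPM in control, 168 CPM at 0.5 h, 321 CPM at 1.5 h and 128 CPM at 5 h. Bcar3, an SH2 adaptor protein, was at 162, 181, 414 and 182 CPM, and its reads outside exons were at 113, 131, 276 and 148 RPM, 2.43-fold above control at 1.5 h (2.34 to 2.53). Twsg1, a modulator of BMP signalling, was an exception that was higher still at 5 h, at 130, 152, 284 and 409 CPM. Irs1, a substrate of the insulin receptor, stood at 370 CPM at 1.5 h and 353 CPM at 5 h against 169 CPM in control.

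Genes of the circadian clock were among the called ones in both directions. Nr1d1, the nuclear receptor REV-ERB alpha that represses Arntl, had 9.87, 8.18, 9.88 and 7.97 CPM in the control lanes and 29.6, 31.4, 31.6 and 29.7 CPM in the 1.5 h lanes, 3.41-fold higher (3.0 to 3.88). Its reads outside exons, at 0.779 and 0.875 RPM, were under the minimum of 2 and within counting error of no change, 1.12-fold (0.635 to 1.99). Per1, a repressor of the clock, went from 50 to 122 CPM, 2.43-fold higher (2.3 to 2.58). Arntl, the activator BMAL1, went from 30.0 to 13.5 CPM, 2.21-fold lower (1.98 to 2.48), and its reads outside exons were 2.11-fold lower (1.76 to 2.53).

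Altogether 10 of 13 measured clock genes were above 0, with a median log2 ratio of 0.32, with 2 calls above and 1 below, beside 0.641% and 0.210% over all genes. Per2 was 1.69-fold higher (1.53 to 1.87), and its reads outside exons 2.42-fold (1.85 to 3.20). Arntl's partner Clock was at 54.6 and 73.2 CPM, and the output genes Dbp and Tef were at 10.5 and 49.5 CPM at 1.5 h, within 0.1 of 0 on the log2 scale. At 0.5 h Nr1d1 was at 10.7 CPM and Arntl at 28.0 CPM, both near control. Arntl's reads outside exons had by then gone from 11.9 to 6.67 RPM, and they stood at 5.66 at 1.5 h.

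Genes that build ribosomes were nearly all above control. Ribosome assembly starts in the nucleolus, where RNA polymerase I makes the ribosomal RNA precursor, and small nucleolar RNPs and assembly factors modify, cut and fold it into the 2 subunits. The 3 lists for these steps held 100 genes, all measured, of which 96 were above 0. Of the 100, 6 were called higher, against 0.641% of all genes, and 0 lower. In large subunit assembly 42 of 42 were above 0 with a median log2 ratio of 0.47, in the small nucleolar RNP and small subunit list 39 of 40 with a median of 0.40, and in the polymerase I list 15 of 18 with a median of 0.20.

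Gnl3, which encodes nucleostemin, a nucleolar GTPase, had 70.0, 69.7, 66.8 and 65.4 CPM in the control lanes and 153, 156, 157 and 154 CPM in the 1.5 h lanes, 2.28-fold higher (2.17 to 2.39). Polr1b, the second largest subunit of RNA polymerase I, went from 28.9 to 70.0 CPM, 2.42-fold higher (2.25 to 2.61). It was the 1 called gene of its list, and the polymerase subunits Polr1c and Znrd1 stood within 1.5-fold of control. Rrp1b, Rrs1, Ppan and Nop2, factors of the large subunit, were called at 2.23-fold (2.10 to 2.37), 2.10-fold (1.97 to 2.23), 2.06-fold (1.96 to 2.18) and 2.02-fold higher (1.92 to 2.12). Nop2, a methyltransferase of ribosomal RNA, and the initiation factor gene Eif1a lay just inside the limit of 2-fold, with log2 ratios of 1.0. Neither was called in unique reads, where their folds with nothing added were 2.01 and 1.99. Eaf1, an elongation factor partner with a log2 ratio of 0.99, lay just outside it.

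Several abundant nucleolar genes moved little in exon reads while their reads outside exons were higher. Npm1, the nucleolar chaperone nucleophosmin, was at 1292 and 1295 CPM, with 45.6% of reads uniquely placed, and its reads outside exons went from 13.0 to 36.5 RPM, 2.81-fold higher (2.52 to 3.15). Ncl, nucleolin, was 1.21-fold higher in exon reads (1.19 to 1.22) and 2.09-fold in reads outside exons (1.76 to 2.48). Over the 3 lists 80 genes had enough reads outside exons, 79 of them were above 0 there, 30 were called higher (2.36% over all genes), and in 74 the log2 ratio outside exons exceeded that of exon reads. The large subunit list had a median of 1.04 outside exons and the small subunit list one of 0.86.

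Genes of ribosomal proteins differed from those of assembly factors. Of 47 measured 11 were above 0 in total exon reads, with a median log2 ratio of -0.10 that was 0.01 in unique reads. Of the 47, 0 were called, where 0.641% of all genes were called higher and 0.210% lower. For 34 of the 47, under 50% of exon reads were uniquely placed. In reads outside exons 36 of 36 with enough reads were above 0, with a median of 0.66, and 2 were called higher, where over all genes 58.0% were above 0 and 2.36% called higher. Some of their introns hold small nucleolar RNA genes, whose reads these counts would not separate. Rplp0, the stalk protein P0, stood at 1827 CPM in control and 1496 CPM at 1.5 h, and its reads outside exons were 1.93-fold higher (1.43 to 2.64). Rpl24 was the member with the largest exon ratio, 1.59-fold higher (1.50 to 1.69), with 91.6% of reads uniquely placed.

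**Figure D3:**
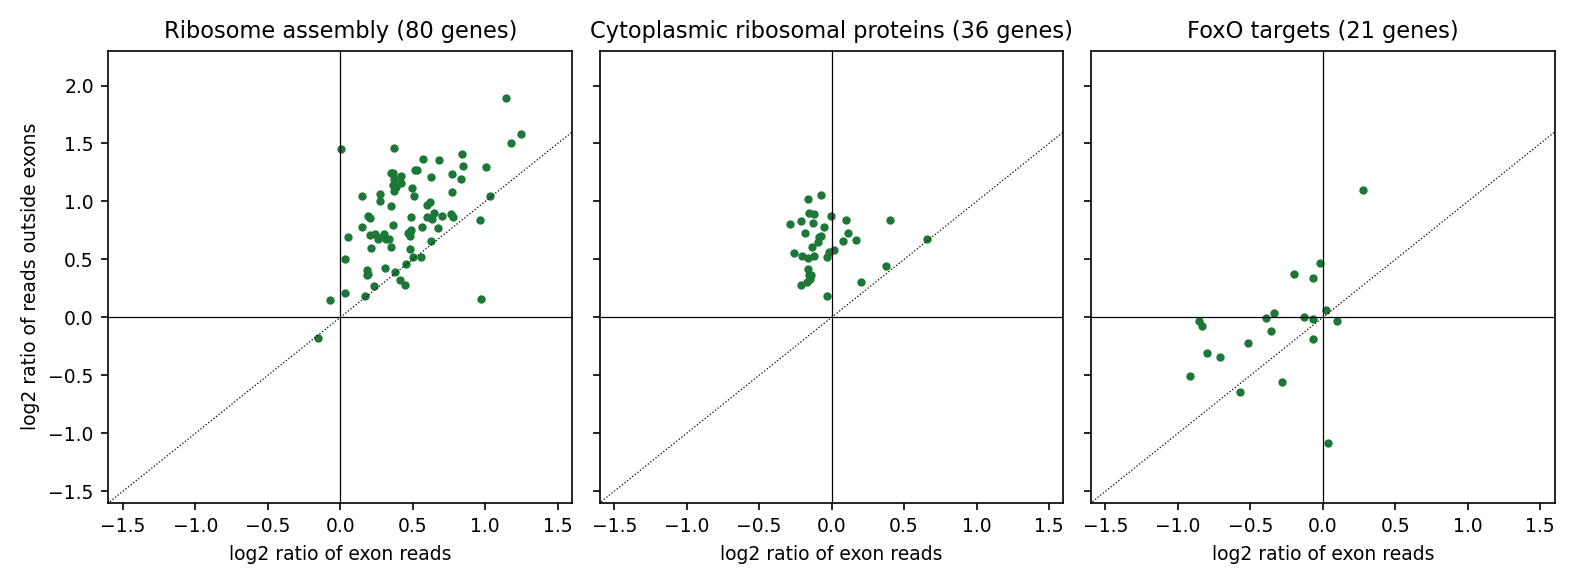
Log2 ratio of reads outside exons (per 1000000 unique gene reads, 0.5 added) against that of exon reads (CPM, 1 added) at 1.5 h over control, with 1 point for each gene that had at least 2 RPM outside exons in either library. The dotted line marks equal ratios. Of the 80 ribosome assembly genes 79 lie above 0 on the vertical axis, as do all 36 ribosomal protein genes, and 7 of 21 FoxO target genes.

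Other lists of growth genes also had medians above 0. Translation factors had a median log2 ratio of 0.23 with 15 of 21 above 0 and 1 called, Eif1a, beside 0.641% of all genes called higher. The abundant elongation factors Eef2 and Eef1a1 were 1.21-fold (1.20 to 1.21) and 1.22-fold lower (1.21 to 1.22). Aminoacyl-tRNA synthetases had a median of 0.10 with 15 of 20 above 0, and 19 of 19 were above 0 outside exons with a median of 0.55. In nucleotide, folate and polyamine synthesis 21 of 29 were above 0 and 0 were called. Srm, spermidine synthase, went from 44.2 to 72.6 CPM, and its reads outside exons were 5.69-fold higher (3.66 to 9.20) at 4.09 RPM. Atf4, a transcription factor of amino acid supply, was 1.78-fold higher (1.73 to 1.83).

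Apart from Aen, the called genes given next stood in none of the lists. Trmt61a, the catalytic subunit of a tRNA methyltransferase, was 2.71-fold higher (2.40 to 3.07), and Polr3d, a subunit of RNA polymerase III, 2.17-fold (1.92 to 2.45). Pprc1, a coactivator of mitochondrial gene expression, was 2.51-fold higher (2.39 to 2.65), Ndufaf4, an assembly factor of complex I, 2.18-fold (2.03 to 2.34), and Mars2, the mitochondrial methionyl-tRNA synthetase, 2.14-fold (1.96 to 2.34). Aen, a nuclease gene that p53 induces, was 2.44-fold higher (2.27 to 2.64) and the 1 called of 17 measured p53 targets, beside 0.641% of all genes. The median of that list was -0.01. The host transcript of the miR-17-92 microRNAs, Mir17hg, was at 38.5 and 89.5 CPM, 2.33-fold higher (2.18 to 2.49).

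Promoters of these genes were searched for short motifs known as binding sequences, in RefSeq windows from 250 bases before to 50 after each start (GRCm38.p6). Windows were found for 42 of the 61 higher genes, 14 of the 20 lower genes and 7990 of the 10996 measured genes, and some genes have several, which can overlap. The E-box CACGTG, the sequence that MYC with MAX and CLOCK with BMAL1 bind, was in 16.3% of the windows of higher genes, against 10.2% of those of measured genes and 7.15% of all windows. In the small nucleolar RNP and small subunit list the share was 22.6%, in large subunit assembly 20.5% and in the clock list 26.7% of 15 windows. Lists with medians below 0 in total exon reads held it too, in 14.7% of windows of FoxO targets and 16.3% of those of ribosomal proteins. The latter are 7 windows of 5 genes. Of the 27 windows of genes called lower, 1 held it, or 3.70%. The E-box variant CACGCG was in 34.7% of windows of higher genes, 17.7% of measured and 9.27% of all windows, and in 26.5% of those of FoxO targets and 25.6% of those of ribosomal proteins. The EGR motif GCGTGGGCG was in 6.12%, which is 3 of 49 windows, those of Erf, Ifrd1 and Tgif2, against 1.18% of measured. The AP-1 motif TGANTCA was in 0 of the 49, against 4.49% of windows of measured genes. The cAMP response element TGACGTCA was in 4 of the 49, or 8.16%, against 3.25% of measured. Both strands were searched, a match is a description of the letters and not of binding, and each motif was counted apart from the others. CACGCG reads CGCGTG on the other strand and so shares letters with the EGR motif, and a base can belong to both. The windows of Nop2, Tsr1 and Erf are shown, 5′ to 3′ on the strand of the gene, because they hold the E-box in 2 assembly genes and the EGR motif in a called Ets repressor, with the motif in capitals.
Nop2 (E-box, chr6:125131633-125131932, plus strand): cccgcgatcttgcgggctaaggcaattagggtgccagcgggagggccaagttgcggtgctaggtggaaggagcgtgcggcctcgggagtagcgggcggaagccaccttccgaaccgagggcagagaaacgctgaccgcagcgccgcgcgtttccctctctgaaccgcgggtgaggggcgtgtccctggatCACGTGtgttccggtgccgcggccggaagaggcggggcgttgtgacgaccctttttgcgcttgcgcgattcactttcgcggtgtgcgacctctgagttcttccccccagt
Tsr1 (E-box, chr11:74897830-74898129, plus strand): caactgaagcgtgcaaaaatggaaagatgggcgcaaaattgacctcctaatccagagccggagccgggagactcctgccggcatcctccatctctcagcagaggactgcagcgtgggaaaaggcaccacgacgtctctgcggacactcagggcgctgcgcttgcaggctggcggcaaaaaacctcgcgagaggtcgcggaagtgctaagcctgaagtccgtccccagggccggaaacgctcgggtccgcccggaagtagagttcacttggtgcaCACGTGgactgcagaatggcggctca
Erf (EGR motif, chr7:25250709-25251008, minus strand): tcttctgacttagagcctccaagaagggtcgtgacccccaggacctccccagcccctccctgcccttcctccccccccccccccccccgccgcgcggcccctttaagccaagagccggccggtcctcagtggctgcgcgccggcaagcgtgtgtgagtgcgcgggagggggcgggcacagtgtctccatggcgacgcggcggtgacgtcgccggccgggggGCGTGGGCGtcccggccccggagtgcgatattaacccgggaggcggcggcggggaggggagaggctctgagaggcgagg

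In these windows the E-box of Nop2 began 60 bases before the start and that of Tsr1 at base 25 after it, counted from the start as base 1, and the EGR motif of Erf began 29 bases before it. Tsr1, a factor of the small subunit, was at 65.8 CPM in control and 130 CPM at 1.5 h, 1.97-fold higher (1.88 to 2.08), and was called in unique reads only. Erf, a repressor of Ets target genes, was at 30.7, 45.5, 66.0 and 29.7 CPM in control, at 0.5 h, at 1.5 h and at 5 h.

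Targets of FoxO factors were the group with the lowest median. FoxO proteins are kept out of the nucleus when PI3 kinase and AKT are active, and genes that they switch on then lose transcription. Of 35 measured members 28 were below 0 and 7 above, with a median log2 ratio of -0.36, and 13 were at least 1.5-fold lower, none at least 1.5-fold higher. The 1 member called lower (0.210% over all genes) was Rag1, a subunit of the V(D)J recombinase, at 6.63 and 1.59 CPM with 7.12% of reads uniquely placed, and it was not called in unique reads. Its unique reads, 17 in control and 3 at 1.5 h, were under the level needed for a call.

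Ccng2, a cyclin of arrested cells, had 210, 212, 207 and 216 CPM in the control lanes and 112, 109, 115 and 111 CPM in the 1.5 h lanes. It was 1.89-fold lower (1.82 to 1.97) and back at 209 CPM at 5 h. Foxo1 itself had 175, 166, 165 and 175 CPM against 96.3, 102, 103 and 100 CPM, 1.70-fold lower (1.63 to 1.77). Hbp1, a repressor of cell cycle genes, was 1.84-fold lower (1.69 to 2.01), Sesn1, a stress-induced inhibitor of mTORC1, 1.8-fold (1.68 to 1.93), and Cdkn1b, the CDK inhibitor p27, 1.51-fold (1.45 to 1.57). Hbp1 and Cdkn1b were at 46.2 and 225 CPM at 5 h, above their control levels of 44.6 and 207 CPM. Trib1 and Sod2 were above control, at 21.5 and 65.6 CPM.

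The median of this list was closer to control in reads outside exons than in exon reads, but these medians cover different genes. The first covers 21 members and the second 35, on scales with different values added. Of the 21 members with enough reads outside exons 7 (33.3%) were above 0 and the median log2 ratio was -0.04, against 58.0% and 0.07 over all genes. Scaled to the total of reads outside exons, 19.0% were above 0 with a median of -0.11, and leaving out 1 lane moved the share from 28.6% to 47.6%, the last without lane 3. The lowest of the 21 in this measure was Blnk, which the list also holds, at a log2 ratio of -1.08. Sesn1 was at 11.2 and 10.6 RPM and Hbp1 at 4.46 and 4.34 RPM, each within counting error of no change. For Ccng2 they were at 8.42 RPM in control, 4.11 at 0.5 h, 5.78 at 1.5 h and 8.18 at 5 h. The FoxO motif GTAAACA, searched on both strands, was in 14.7% of the 34 windows of this list, 5 windows of 5 genes, against 2.29% of windows of measured genes. Those genes are Bbc3, Bcl2l11, Hbp1, Sesn1 and Txnip, of which Bbc3 was above 0. The windows of Hbp1 and Sesn1 are shown with the motif in capitals, since both genes are among the lower ones of the list.
Hbp1 (chr12:31950196-31950495, minus strand): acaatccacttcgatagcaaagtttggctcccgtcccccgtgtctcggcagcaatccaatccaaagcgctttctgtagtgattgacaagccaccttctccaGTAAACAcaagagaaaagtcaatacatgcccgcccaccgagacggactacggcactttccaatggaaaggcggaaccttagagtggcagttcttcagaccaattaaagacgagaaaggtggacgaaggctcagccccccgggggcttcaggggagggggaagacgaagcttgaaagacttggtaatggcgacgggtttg
Sesn1 (chr10:41810324-41810623, plus strand): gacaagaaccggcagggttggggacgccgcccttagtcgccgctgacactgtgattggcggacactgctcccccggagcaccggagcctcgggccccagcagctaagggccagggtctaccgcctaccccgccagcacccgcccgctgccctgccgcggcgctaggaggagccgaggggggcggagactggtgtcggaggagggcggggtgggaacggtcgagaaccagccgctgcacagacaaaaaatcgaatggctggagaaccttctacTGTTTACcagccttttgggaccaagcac

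Genes called lower were led by Pgf, a growth factor of the VEGF family on chromosome 12 (85166639 to 85177296). It had 11.8, 10.2, 10.9 and 11 CPM in the control lanes and 3.33, 2.55, 1.84 and 2.57 CPM in the 1.5 h lanes, 4.26-fold lower (3.36 to 5.47). Its reads outside exons were 4.51-fold lower (3.10 to 6.74) and already at 2.31 RPM at 0.5 h, against 4.79 in control, when exon reads stood at 11.1 CPM. B3gnt8, a glycosyltransferase, was at 23.7 and 7.85 CPM, and Arhgap25, a GTPase-activating protein for Rac, at 36.5 and 14.1 CPM. Arhgap25 was 2.59-fold lower in exon reads (2.33 to 2.89) and 1.23-fold in reads outside exons (1.03 to 1.47).

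Other lower genes encode receptors, adaptors and a cytokine. S1pr4, a receptor for sphingosine 1-phosphate, went from 85.1 to 40.8 CPM, 2.08-fold lower (1.95 to 2.23), and Ptger4, a prostaglandin E2 receptor, from 42.5 to 20.1 CPM, 2.12-fold lower (1.93 to 2.33). S1pr4 was the 1 called of 16 measured homing receptors and integrins, of which 13 were below 0, where over all genes 0.210% were called lower and 52.6% were below 0. S1pr1, which guides lymphocytes out of tissues, was at 7.36 and 3.68 CPM, and Cxcr4, the receptor that holds pre-B cells in the marrow, was 1.26-fold higher at 325 CPM. Of innate immune genes, Tifa, an adaptor of TRAF6, went from 180 to 85.6 CPM, 2.10-fold lower (2.01 to 2.20), and was at 184 CPM at 5 h. Nlrp3, an inflammasome sensor, was at 8.69, 10.4, 3.49 and 0.716 CPM in the 4 libraries in order of time. Il16, a cytokine gene, was at 157 and 65.2 CPM with 20.2% of reads uniquely placed, and Atxn7l1 at 107 and 49.1 CPM with 39.4%.

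Chains of the receptor itself lay slightly below control. All 8 receptor chain genes were below 0, with a median log2 ratio of -0.23 and 0 called. Of all measured genes 52.6% were below 0, and 0.210% of genes at 5 CPM were called lower. Cd79b was 1.34-fold lower (1.30 to 1.37), Cd79a 1.27-fold (1.25 to 1.28) and Ighm 1.20-fold (1.19 to 1.21), while Vpreb1 was 1.05-fold lower (1.03 to 1.06). Syk, the kinase upstream of BLNK, was 1.46-fold lower (1.42 to 1.50), with reads outside exons 1.55-fold lower (1.44 to 1.68). The catalytic PI3 kinase subunit gene Pik3cd was 1.52-fold lower (1.50 to 1.55), with reads outside exons 1.59-fold lower (1.53 to 1.66). Ptpn6, the phosphatase SHP-1 that damps receptor signals, was 1.82-fold higher (1.77 to 1.87). Il7r, the IL-7 receptor, was at 105 and 79.4 CPM, and of genes under its control the kinase Pim2 was 1.97-fold lower (1.85 to 2.10) and Pim3 was called higher at 2.54-fold (2.20 to 2.95).

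The recombination machinery was split. In the list of V(D)J recombination and end joining 11 of 16 were below 0, with a median of -0.17. It held 1 call above, Dclre1c, and 1 below, Rag1, beside 0.641% and 0.210% over all genes. Dclre1c, the nuclease Artemis that opens hairpins, was called at 2.15-fold higher (2.0 to 2.3), with reads outside exons 2.65-fold higher (2.44 to 2.88). Rag2, the partner of Rag1, was at 7.27 and 3.74 CPM with 21.4% of reads uniquely placed. Lig4, the ligase that seals the joints, was 1.51-fold lower (1.37 to 1.67) at 21.2 CPM, and 35.6 CPM at 5 h.

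Cell cycle genes stayed close to control. Among S phase genes 23 of 32 lay below 0 (median -0.08), and among those of G2 and mitosis 22 of 28 (median -0.11). In either list 0 were called, where 0.641% of all genes were called higher and 0.210% lower. Cyclin D2, Ccnd2, was 1.46-fold higher (1.39 to 1.53), Cdk6, a partner kinase, 1.89-fold (1.79 to 2.0), and cyclin D3, Ccnd3, 1.13-fold lower (1.10 to 1.15). In glycolysis 16 of 20 lay below 0 (median -0.26), but Hk2, hexokinase 2, was 1.66-fold higher (1.58 to 1.74). Of interferon response genes 15 of 18 lay below 0 (median -0.25), among them Irf1 at 53.3 and 33.2 CPM. In sterol synthesis 21 of 26 lay above 0 (median 0.15). Housekeeping genes had a median of 0.03 with 8 of 15 above 0.

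**Figure D4:**
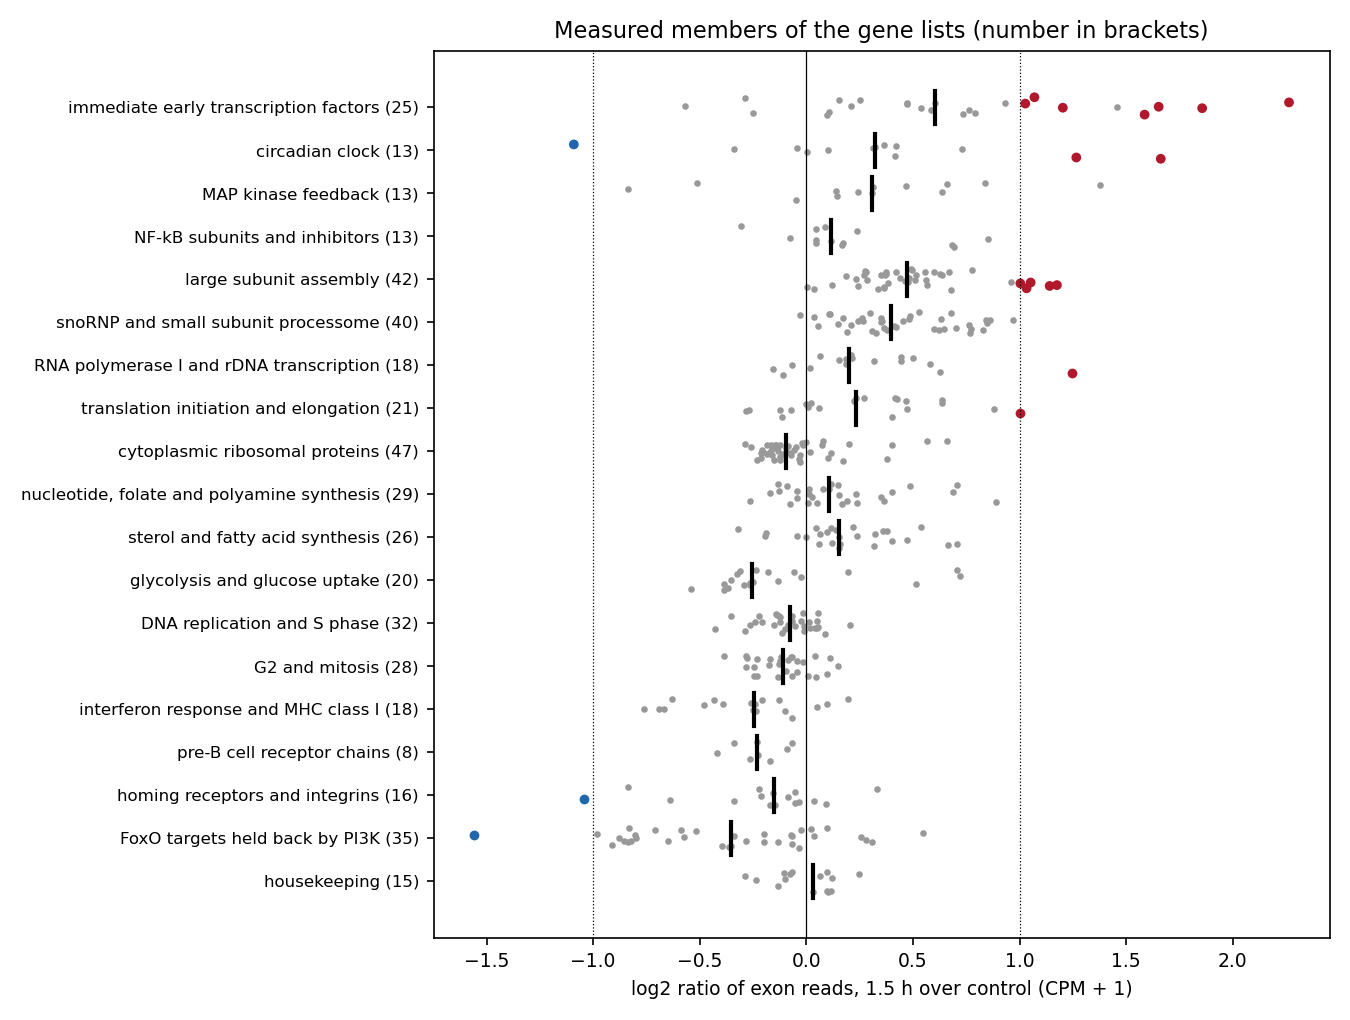
Log2 ratio of exon reads at 1.5 h over control (1 CPM added) for each measured member of 19 gene lists, with the number measured in brackets. Grey points were not called, red were called higher, blue were called lower, and black bars are medians. Medians run from 0.60 in immediate early transcription factors to -0.36 in FoxO targets, with housekeeping genes at 0.03.

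Reads outside exons singled out genes whose exon reads were within 2-fold of control. Of the 200 genes called higher in them, 191 reached 5 CPM in exon reads, 182 were above 0 there, and 27 were called, with a median exon log2 ratio of 0.57. Over all 9512 genes at 5 CPM, 48.9% were above 0 and 0.641% were called higher. Of the 53 lower ones 44 reached that level, 43 were below 0 and 5 were called, with a median of -0.49. Over all 9512 genes, 4858 were below 0 and 0.210% were called lower. Scaling to the total of reads outside exons, in place of all unique gene reads, gave 149 higher and 72 lower.

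Ephx1, the microsomal epoxide hydrolase, had the largest ratio. Its reads outside exons were at 1.59 RPM in control, 2.44 at 0.5 h, 10 at 1.5 h and 7.39 at 5 h, 6.30-fold higher at 1.5 h (4.70 to 8.59). Its exon reads were 1.40-fold higher at 1.5 h (1.27 to 1.54), at 30.9 CPM, and reached 115 CPM at 5 h. Pitpnm2, a phosphatidylinositol transfer protein, was 3.85-fold higher outside exons (3.62 to 4.10) and 1.90-fold in exon reads (1.84 to 1.96), which went from 310 CPM at 1.5 h to 645 CPM at 5 h.

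Pus7, a pseudouridine synthase, was 4.28-fold higher outside exons (3.65 to 5.04) and at 50.5, 49.4, 76.3 and 104 CPM in exon reads over the 4 libraries. Ybx3, a cold shock domain protein, was 3.50-fold higher outside exons (3.18 to 3.86) while its exon reads were at 224, 231, 244 and 310 CPM. St6galnac4, a sialyltransferase, was 5.31-fold higher outside exons (4.08 to 6.99), and its exon reads were highest at 1.5 h, at 50.5 CPM, and 38.7 CPM at 5 h. Exon reads were thus higher still at 5 h for some of these genes and not for most of the set. Over the 200 genes, exon reads were higher at 5 h than at 1.5 h for 43.0%, and over all 8491 genes for 48.2%.

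Among genes lower outside exons, some had exon reads that were lower still at 5 h. Dntt, the terminal transferase of pro-B and early pre-B cells, had 42.1, 29.7, 15.4 and 24.2 RPM outside exons in the 4 libraries, 2.72-fold lower at 1.5 h (2.46 to 3.02). Its exon reads were at 138, 121, 93.1 and 48.0 CPM. Bst1, an ectoenzyme of B cell precursors, was 3.47-fold lower outside exons (2.67 to 4.56), with exon reads at 32.3, 33.4, 22.8 and 15.4 CPM. Evl, an actin regulator, was 2.71-fold lower outside exons (2.49 to 2.96) and 1.26-fold in exon reads (1.21 to 1.31). Of the 53 lower genes, exon reads were lower at 5 h than at 1.5 h for 56.6%, against 49.7% of all.

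The gene of the fusion partner also differed between the 2 measures. Blnk was at 3516, 3806, 3601 and 3533 CPM of exon reads in the 4 libraries, 1.02-fold above control at 1.5 h (1.02 to 1.03). Its reads outside exons were at 218, 193, 102 and 183 RPM, 2.13-fold lower at 1.5 h (2.04 to 2.22). Junction reads of Blnk followed the exon reads, at 1.04-fold. The counts do not separate RNA of the retroviral construct from RNA of the endogenous locus, and their parts in either measure were not tested. Esr1, the gene whose hormone-binding domain the fusion carries, was at 94.7 and 109 CPM in exon reads and at 5.87 and 5.56 RPM outside exons.

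**Figure D5:**
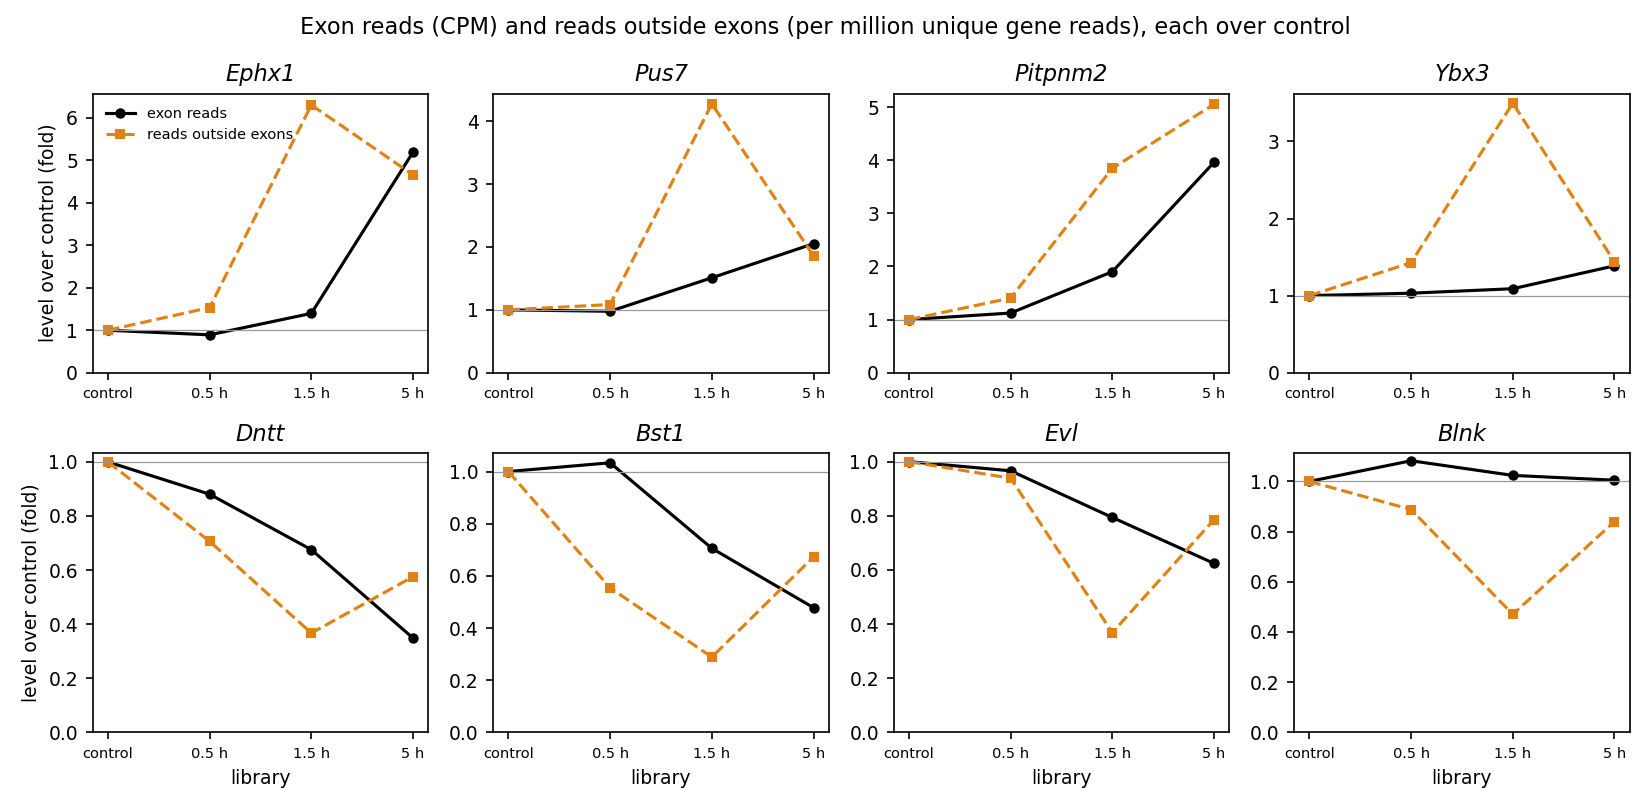
Fold over control of exon reads (black, CPM) and of reads outside exons (orange, per 1000000 unique gene reads) in the 4 libraries, for 8 genes chosen after their values were seen, with 1 library per condition. Vertical axes start at 0 and differ in range. At 1.5 h the reads outside exons of Ephx1, Pus7, Pitpnm2 and Ybx3 were between 3.50-fold and 6.30-fold of control, and those of Dntt, Bst1, Evl and Blnk were 2.13-fold to 3.47-fold lower.

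Some calls rest on reads that cannot be placed with certainty. Of the higher genes 6 had under 50% unique reads, among them the histone gene Hist1h2ap, called at 4.06-fold (3.25 to 5.10) with 24.4% unique reads and not called in unique reads, and Tgif2, a repressor of TGF-beta signalling, with 22%. In unique reads Hist1h2ap was 6.77-fold higher (3.98 to 12.3) at 3.73 CPM, under the level needed for a call. Of the lower genes 6 also had under 50% unique reads, among them the protease gene Adam19 with 46.4% and the T cell receptor segment Trav13-1 with 48.2%. Of these 6 Il16 alone was called in unique reads, and some, such as Adam19 and Trav13-1, were under 5 CPM there. Whether reads were counted by strand is not stated, so reads of a gene and of an antisense or overlapping gene cannot be told apart.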

How the data were processed

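RNA of pre-B cells was selected for poly(A), turned into libraries by either the TruSeq or the NEBNext protocol (which one for which library is not stated) and sequenced on a HiSeq 2500, per the labels' protocols. The submitters' processing notes name CASAVA 1.8.2 and the build mm10, and the sources used here do not give the aligner, the counting program or the strand setting. Per the file headers, the deposited values are raw read counts for each gene in each lane: total and unique exon reads, total and unique gene reads, and unique exon-exon and intron-exon reads. RPKM columns and the authors' fold change were not used, and 0 columns were left unmatched to a sample. The control columns of the tables were the same in 8 of 8 cases, and 0 pairs of lanes held identical counts.

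The 4 lanes of a library share 1 index and were summed to 1 library per condition. Total exon reads were scaled to CPM, and log2 ratios were taken after adding 1 CPM. A call needs a 2-fold ratio on that scale and 5 CPM in the higher library. Folds in the text are plain ratios, given with exact Clopper-Pearson intervals at 95% from the binomial split of reads. The reads carry no molecular identifiers and are not independent molecules, so intervals and limits cover counting error only. Reads outside exons are unique gene minus unique exon reads, with 0.5 added and a minimum of 2 per 1000000 unique gene reads. A count of 0 allows up to 3 counts.

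The 45 gene lists name 903 genes, of which 897 were found by symbol or older symbol. The genes, the lists and the alternatives were chosen with earlier results of these data known. Named genes are the 15 largest ratios of each direction among genes called on total and on unique reads, clone-named genes left out, up to 5 members of each list with the largest ratios and every called member, the 10 largest in each direction outside exons, called genes with under 50% unique reads, and a fixed set of receptor, cell cycle and B lineage genes. Other members, named as contrasts within a list, were chosen after their values were seen, and not every gene that the rule names is printed. Alternatives were TMM factors of edgeR 4.0.16, DESeq2 1.42.0 size factors, other pseudocounts, floors and folds, unique exon and total gene reads, leaving out each lane, and a mean of within-lane ratios. Each lane was left out of the reads outside exons as an alternative added after the data were seen. The ratios and intervals were tested on simulated data, Poisson counts drawn from the levels of the control library. These data held counting error only, so that test cannot show whether the intervals cover spread between lanes or cultures. The software was R 4.3.3 and Python 3.11.15 (matplotlib 3.10.9, scipy 1.17.1, numpy 2.4.6, pandas 2.3.3).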

Additional observations from a re-analysis of the deposited data

How the results depend on the processing

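The counts of calls depended on the rule of size more than on scaling. With a pseudocount of 5 CPM 32 genes were higher and 6 lower. With a floor of 20 CPM 10 were lower. At 1.5-fold 321 were higher and 189 lower, and at 4-fold 2 and 0, with 24 lower without a floor. TMM factors gave 64 and 20, DESeq2 size factors 61 and 20, unique exon reads 55 and 17, and total gene reads 78 and 26. Without 1 lane of both libraries, higher calls ran from 59 to 65 and lower ones from 19 to 26, and in reads outside exons from 201 to 209 and from 51 to 58. The lane numbers name lanes of the same 2 libraries, and the replicate block, a mean of the within-lane ratios, gave 61 higher and 21 lower. Over the settings that keep the 2-fold rule and the floor of 5 CPM, 30 of the 61 higher and 4 of the 20 lower calls were kept in every one, and the pseudocount of 5 CPM, which needs a larger change in low genes, removed the most. The 4 lower ones were Pgf, B3gnt8, Arhgap25 and Il16. Among the calls lost at that pseudocount were Egr3, Nr4a3, Junb, Pim3, Rrs1, Ppan, Arntl, S1pr4, Ptger4 and Nlrp3. Among those lost in total gene reads were Tifa, Ptger4 and Srf. None of the 45 called among the 238 named genes reversed. Of called genes named here, Srf, Nop2, Eif1a, Hist1h2ap, Tgif2, Rag1, Adam19, Trav13-1 and Atxn7l1 lost the call in unique reads. Of these, Hist1h2ap, Rag1, Adam19 and Trav13-1 were under 5 CPM in unique reads. Their plain folds there were 6.77 higher for Hist1h2ap, and 5.38, 2.56 and 3.59 lower for Rag1, Adam19 and Trav13-1. Srf, Nop2, Eif1a, Polr3d, Clcf1, Dkk3 and Tbx6 lost it without 1 lane. Depth limits the low end, where few reads give wide intervals.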
